A study of Mus musculus with 6 samples.

Results

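The mouse mitochondrial chromosome carries 37 annotated genes, and all 37 were found by their mt- symbols among the 37620 gene identifiers of the 6 count files. They are 13 protein-coding genes, 2 rRNA genes and 22 tRNA genes, with 28 on one strand (called plus here) and 9 on the other (minus), namely mt-Nd6 and 8 tRNA genes. RNA came from mature brown fat, the floating adipocyte layer of collagenase-digested tissue, of C57BL/6-background mice aged 6 weeks. One group of 3 libraries was wild type and the other 3 carried the label PHOSPHO1 knockout, and no other treatment is given for either. Each library was a pool of 3 mice, so the spread between libraries is a spread between pools. The labels do not say how the knockout allele was made. Phospho1, which encodes a phosphatase of phosphocholine and phosphoethanolamine, had 13, 5 and 5 counts in wild-type libraries 1, 2 and 3 and 18, 15 and 17 counts in the knockout libraries. Its counts did not fall with the label, and which part of the gene was removed is not given in the sources used here. The second group is therefore called knockout-labelled throughout, and the labels do not say that its library 1 is matched to wild-type library 1.

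The mitochondrial genome is a small circular DNA present in many copies per cell. Both strands are transcribed as long precursor RNAs, in which tRNA genes lie between most of the rRNA and protein-coding genes. Enzymes cut the tRNAs out and thereby release the rRNAs and mRNAs, most of which then receive a poly(A) tail. The proteins are core subunits of respiratory complexes I, III and IV and of ATP synthase, and the rRNAs and tRNAs serve the mitochondrial ribosome. Brown adipocytes are packed with mitochondria, where Ucp1 lets protons return across the inner membrane and releases the energy as heat.

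Total counts ranged from 10576800 to 14239307 per library. The summed brown adipocyte markers lay between 40050 and 50930 CPM (counts scaled to library size, here to the nuclear counts alone) in wild type and between 41480 and 54370 in the knockout-labelled group, with 0 of 10 markers at 0 in all libraries. Fabp4, a fatty acid binding protein gene, gave most of that sum (22380 to 34560), and single markers did separate the groups. Ucp1 was at 4799, 6193 and 4855 CPM of nuclear counts in wild type and 8551, 7405 and 7167 in the knockout-labelled libraries, all higher, as was Cox7a1. Dio2, which activates thyroid hormone, was lower in all, at 154.5, 57.5 and 52.5 against 23.6, 17.2 and 15.8. Pparg was also lower in all, by a small margin, at 486.3, 487.2 and 572.1 against 385.8, 484.4 and 423.2. Wild-type library 3 stood apart in 10 skeletal muscle markers, at 2426 CPM of nuclear counts against 74.0 to 234 in the other 5 libraries. The 6 macrophage markers, summed, did not overlap between groups (186 to 377 against 410 to 876 CPM of nuclear counts), but Lyz2, a lysozyme gene, gave most of the sum, at 137 to 333 against 382 to 842. Cd68 was also higher in all knockout-labelled libraries, narrowly at the closest pair (7.58 to 8.65 against 8.91 to 16.7). The macrophage receptor genes Mrc1 (14.1 to 17.2 against 7.32 to 8.28) and Cd163 (2.19 to 8.11 against 0 to 1.27) went the other way without overlap. Adgre1 and Csf1r overlapped. The 7 erythroid markers, summed, ranged from 736 to 2595 and from 2348 to 6444. The 8 endothelial and 6 stromal markers, each list summed, overlapped between groups, but some single markers did not. Tek (69.3 to 157 against 29.3 to 57.9) and Flt1 (44.98 to 113 against 18.16 to 39.15) were lower in all knockout-labelled libraries. Egfl7 (105.8 to 166.1 against 172.5 to 300.5) and, narrowly, Dcn (534.7 to 601.8 against 602.5 to 670.3) were higher in all. Over all genes tested, 35.4% had groups that did not overlap, in CPM scaled over all genes. In all libraries together, 0 markers of any of these lists were at 0 throughout. How far nuclear counts depended on transcript length also moved with the label. The slope of each library's log2 level, relative to the mean of all 6, on log2 transcript length was 0.311, -0.0285 and 0.306 in wild type and -0.245, -0.0935 and -0.249 in the knockout-labelled libraries. The part of these features in the mitochondrial results was not tested. In bulk RNA, fewer cells of a type and less RNA per cell cannot be told apart.

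Most counts of the mitochondrial genome came from 9 of its genes, and 6 protein-coding genes were close to uncounted. The 9 genes with at least 10000 counts in every library were mt-Rnr1, mt-Rnr2, mt-Nd1, mt-Nd2, mt-Co1, mt-Nd4, mt-Nd5, mt-Nd6 and mt-Cytb, and they held 99.951% to 99.985% of the mitochondrial counts. The other 6 protein-coding genes, mt-Co2, mt-Atp8, mt-Atp6, mt-Co3, mt-Nd3 and mt-Nd4l, each had under 200 counts in every library, although they make up 26.3% of the annotated protein-coding length. Summed, they had 105, 88 and 93 counts in wild type and 68, 117 and 153 in the knockout-labelled libraries. In genome order they form one block from mt-Co2 to mt-Nd4l, flanked by mt-Co1 and mt-Nd4 and interrupted only by tRNA genes.

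**Figure D1:**
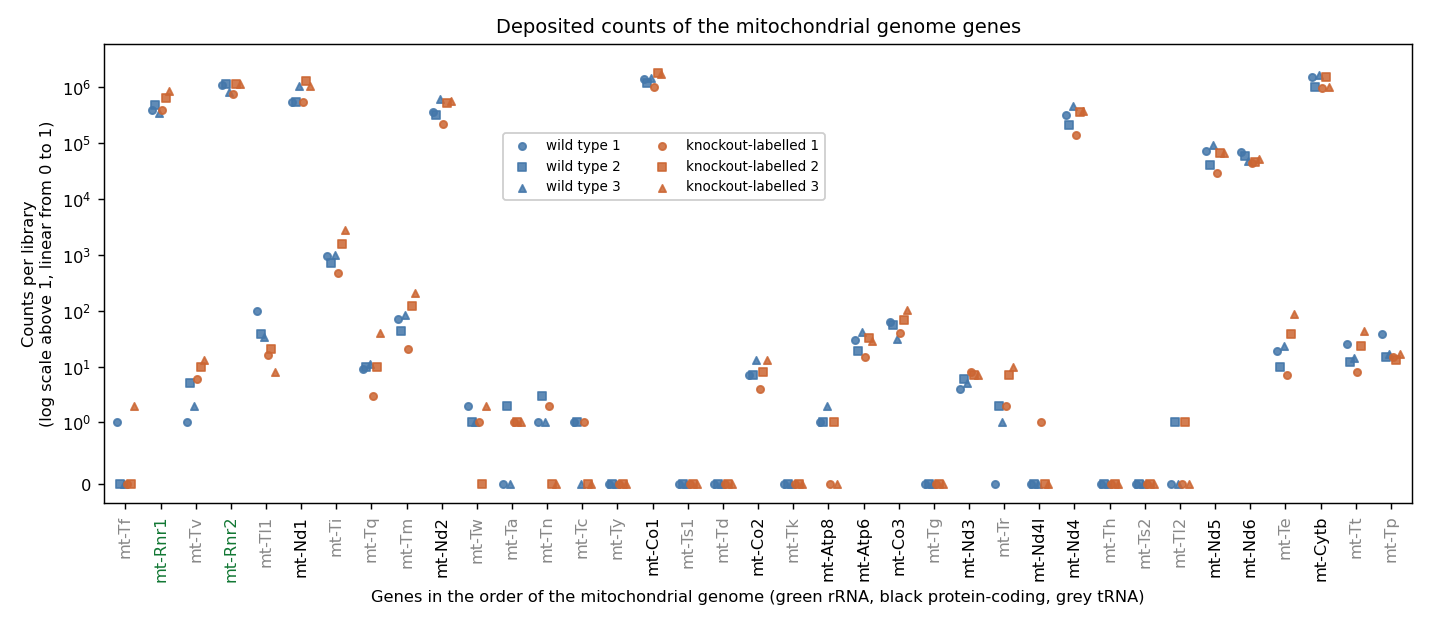
Counts per library (log scale above 1, linear from 0 to 1) for the 37 genes in genome order, with blue symbols for wild type and orange for knockout-labelled libraries and 1 symbol shape per replicate number. The 9 well-counted genes sit at or above 10000 counts, and the run from mt-Co2 to mt-Nd4l sits below 200.

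The block coincides with near-identical nuclear copies. A search of annotated mouse transcripts (GENCODE M21, GRCm38) found 7 pseudogenes, all on chromosome 1, that match mitochondrial genes at 99% identity or more. They cover 681 of the 684 bases of mt-Co2, 678 of 681 of mt-Atp6, 783 of 784 of mt-Co3, 345 of 348 of mt-Nd3 and 294 of 297 of mt-Nd4l. For mt-Atp8 the match found was only 43 of 204 bases, and copies outside annotated transcripts could not be searched. The copies also cover 876 of 1378 bases of mt-Nd4 and 483 of 1545 bases of mt-Co1, the genes on either side. Only 1 of the 7 pseudogenes, Gm10222, is among the counted identifiers, and it had 2 to 7 counts per library. A read from a stretch that is identical in 2 places cannot be placed by its sequence. How such reads were treated is not given in the sources used here, and their part in the low counts was not tested.

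The stretches below show what a read would have to tell apart. For mt-Co2 and its copy Gm28661, bases 312 to 371 of the gene hold no difference.
mt-Co2: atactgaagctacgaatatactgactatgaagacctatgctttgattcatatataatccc
Gm28661: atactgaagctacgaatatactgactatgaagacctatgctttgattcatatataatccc
For mt-Nd3 and its copy Gm28438, the first 60 bases hold the 1 mismatch of the whole match, in capitals.
mt-Nd3: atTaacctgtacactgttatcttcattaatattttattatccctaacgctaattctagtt
Gm28438: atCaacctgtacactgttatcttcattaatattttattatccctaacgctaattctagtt
By contrast, the well-counted mt-Cytb has only a diverged copy, Gm11410 on chromosome 4, at 92.9% identity. Bases 543 to 602 of mt-Cytb hold 4 mismatches to it, again in capitals.
mt-Cytb: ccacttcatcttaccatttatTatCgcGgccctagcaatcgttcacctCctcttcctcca
Gm11410: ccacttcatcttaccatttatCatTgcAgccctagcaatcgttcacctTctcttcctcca
Sequences are those of GENCODE M21 transcripts, 5′ to 3′ along the gene, looked up by gene identifier.

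Of the 6 low genes only mt-Co3 and mt-Atp6 passed the filter on low counts. mt-Co3, the third core subunit of cytochrome oxidase (complex IV), was the highest of them, with 63, 55 and 31 counts in wild type and 40, 69 and 104 in the knockout-labelled libraries. mt-Atp6, the proton channel subunit of ATP synthase, had 30, 19 and 42 counts against 15, 32 and 29. Both ranges overlapped, and the log2 fold changes were 0.96 ± 0.392 for mt-Co3 and 0.05 ± 0.467 for mt-Atp6 (SE, edgeR adjusted p = 0.125 and 0.948). mt-Co2, which receives electrons from cytochrome c in complex IV, had 7, 7 and 13 counts against 4, 8 and 13. The complex I subunit gene mt-Nd3 had 4, 6 and 5 counts against 8, 7 and 7. For mt-Atp8, an ATP synthase subunit gene that overlaps mt-Atp6, no library exceeded 2 counts, with 1, 1 and 2 in wild type and 0, 1 and 0 in the other group. mt-Nd4l, the small complex I subunit gene that overlaps mt-Nd4, had 1 count in knockout-labelled library 1 and 0 in the other 5 libraries. A count of 0 allows up to 3 counts, or 0.211 to 0.284 CPM depending on the library. All shares below leave these genes out as far as their reads were left out of the counts.

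The mitochondrial genome gave a large share of all counts in both groups. It was 40.7%, 39.3% and 54.3% of counts in wild-type libraries 1, 2 and 3 and 39.1%, 54.3% and 56.5% in the knockout-labelled libraries. Each group held low and high libraries, and the ranges overlapped almost whole. The means were 44.8% ± 8.26 (SD, n = 3) and 49.96% ± 9.48 (SD, n = 3), and the difference of 5.19 percentage points did not exceed the spread between pools (exact two-sided permutation test, p = 0.6, where 0.1 is the smallest p possible for 3 against 3). Without wild-type library 3, which had the muscle markers, the difference was 9.94 points (exact permutation p = 0.4). The 95% Wilson intervals of the single shares reached at most 0.0294 points to either side and cover counting error only.

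**Figure D2:**
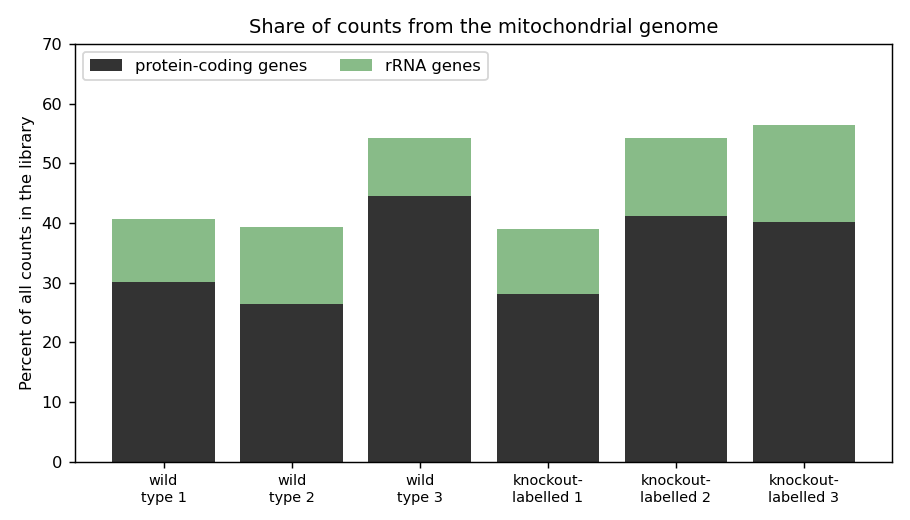
Percent of all counts in each library from mitochondrial protein-coding genes (dark) and rRNA genes (green), stacked; tRNA genes are too few to see. Library totals run from 39.1% to 56.5%, and both groups contain libraries near 40% and above 54%.

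Protein-coding genes moved the share more than rRNA genes did. They took 30.2%, 26.4% and 44.5% of all counts in wild type and 28.1%, 41.2% and 40.1% in the knockout-labelled libraries. The rRNA genes took 10.5%, 12.96% and 9.72% against 11.004%, 13.1% and 16.3%. Wild-type library 3 thus had the highest protein-coding share and the lowest rRNA share of the 6.

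Within the mitochondrial counts, the split between gene classes did not separate the groups. rRNA made up 25.8%, 32.9% and 17.9% of mitochondrial counts in wild type and 28.2%, 24.2% and 28.9% in the knockout-labelled libraries. The means were 25.5% ± 7.52 and 27.1% ± 2.53 (SD, n = 3 each, exact permutation p = 0.8, adjusted p = 0.8 over the 3 classes). The difference of 1.55 points turned to -2.27 points without wild-type library 3. Protein-coding genes made up the rest but for the tRNA genes, at 67.1% to 82.1% and 71.1% to 75.8% (exact permutation p = 0.8, adjusted p = 0.8). tRNA genes were 0.0211%, 0.0173% and 0.0183% of mitochondrial counts against 0.0136%, 0.0242% and 0.0467%, again overlapping (exact permutation p = 0.6, adjusted p = 0.8).

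**Figure D3:**
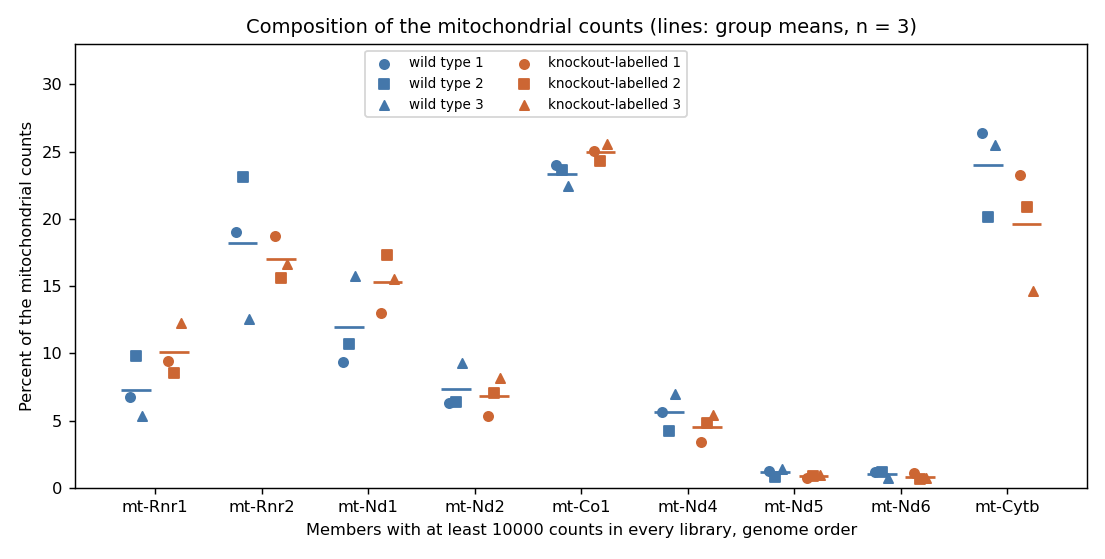
Percent of the mitochondrial counts held by each of the 9 well-counted genes in each library, with blue for wild type, orange for knockout-labelled libraries and lines at the means of 3 libraries. mt-Co1 varies least for its size (22.5% to 25.6%) and is the only one of the 9 whose groups do not overlap, while mt-Cytb runs from 14.6% to 26.4%.

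Gene by gene, edgeR's quasi-likelihood test with TMM scaling (size factors from the bulk of genes, not from totals) called 0 of the 17 tested mitochondrial genes higher and 1 lower at an adjusted p under 0.05 (Benjamini-Hochberg over all genes tested). Over all 12068 genes tested the same rule called 1.63% of genes higher and 7.52% lower. Of the 37 genes, 20 did not pass the filter on low counts. Unadjusted p was under 0.05 for 4 of the 17, mt-Rnr1, mt-Tl1, mt-Co3 and mt-Te, against 30.8% of all genes tested. DESeq2 called 1 mitochondrial gene higher (mt-Rnr1) and 1 lower (mt-Tl1), and limma-voom called 0 in either direction. Over all genes DESeq2 called 493 of 11733 higher and 1350 lower, and limma-voom called 150 of 12068 higher and 742 lower. Among the 9 well-counted genes the log2 fold change (knockout-labelled over wild type) ranged from -0.03 to 0.99, with a median of 0.30 beside 0.03 over all genes. It was above 0 for 8 of the 9, but with library totals as the only scaling mt-Nd4, mt-Nd6 and mt-Cytb turned to -0.15, -0.18 and -0.18. That scaling moved the median of all genes to -0.23. The adjusted p of the 9 ran from 0.0991 to 0.966. With knockout-labelled library 1 left out, 5 mitochondrial genes were called higher, mt-Rnr1, mt-Ti, mt-Tm, mt-Co3 and mt-Te, and 0 lower, where 301 of all 12068 genes were called higher and 1039 lower.

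A second fit set each library's size to its summed mitochondrial counts, so that a gene is read as its proportion within the mitochondrial genome. It too called 0 of the 17 higher and 1 lower, where the same rule called 8.11% of all genes in either direction. Unadjusted p was under 0.05 for 2 of the 17, against 21.6% of all genes, and limma-voom with the same sizes called 0 higher and 1 lower. The well-counted genes ranged from -0.44 to 0.47 on the log2 scale, 3 of the 9 were above 0, and their adjusted p ran from 0.689 to 0.973. Without knockout-labelled library 1, mt-Te was called higher. The spread in this fit is estimated over all genes, whose levels shift with the mitochondrial share, and its standard errors for these 9 were wide (0.446 to 0.510).

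**Figure D4:**
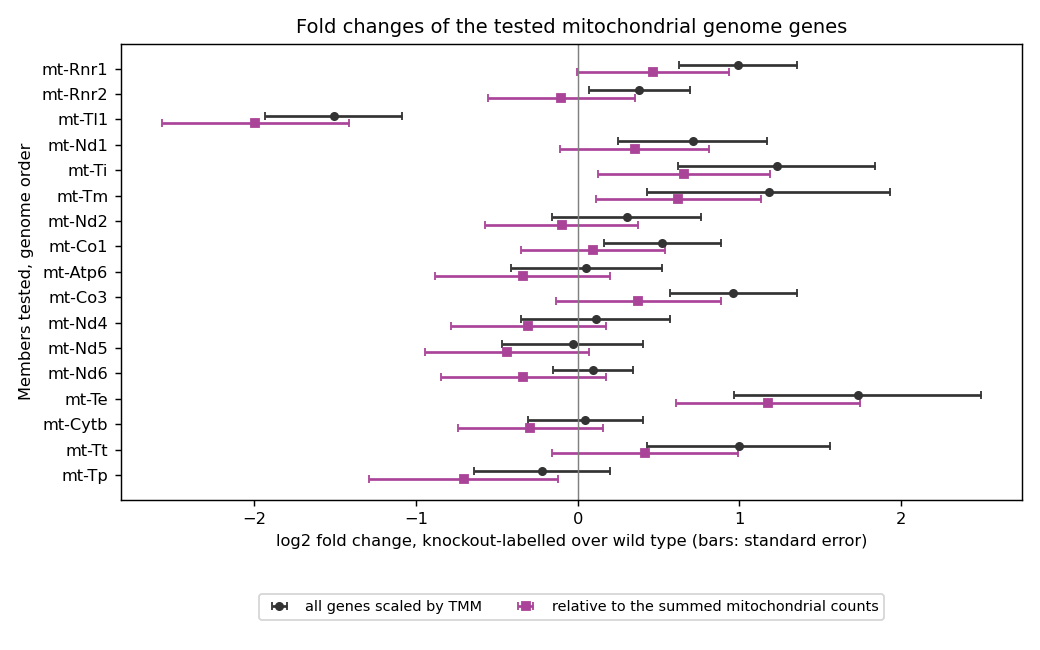
log2 fold change, knockout-labelled over wild type, of the 17 tested mitochondrial genes in genome order, with bars for the standard error; black circles are scaled over all genes and purple squares are relative to the summed mitochondrial counts. mt-Tl1 lies lowest in both, at -1.51 and -1.995, and the purple points sit to the left of the black ones.

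The rRNA genes lie side by side near the start of the plus-strand precursor, with mt-Tv between them. mt-Rnr1 (ENSMUSG00000064337), the 12S rRNA of the small ribosomal subunit, had 389767, 493867 and 353605 counts in wild type and 391072, 638128 and 848941 in the knockout-labelled libraries. Scaled over all genes these were 21978, 33705 and 31733 CPM against 34590, 52343 and 86680 CPM. Every knockout-labelled library was above every wild-type library, by a small margin at the closest pair. Its log2 fold change of 0.99 ± 0.366 (SE) did not pass edgeR's threshold (adjusted p = 0.0991), and 35.4% of all genes tested had groups that did not overlap. It fell to 0.58 without knockout-labelled library 3. As a share of the mitochondrial counts mt-Rnr1 overlapped between groups, at 6.73%, 9.79% and 5.37% against 9.46%, 8.55% and 12.3%.

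mt-Rnr2 (ENSMUSG00000064339), the 16S rRNA of the large ribosomal subunit, had 1102318, 1167877 and 825125 counts in wild type and 772852, 1167387 and 1149193 in the knockout-labelled libraries. The groups overlapped, and its log2 fold change was 0.38 ± 0.312 (SE, edgeR adjusted p = 0.411). There were 2.83, 2.37 and 2.33 counts of mt-Rnr2 per count of mt-Rnr1 in wild type and 1.98, 1.83 and 1.35 in the knockout-labelled libraries. All 3 wild-type ratios were higher, with means of 2.51 ± 0.277 and 1.72 ± 0.325 (SD, n = 3 each). The exact permutation p of the log2 ratio was 0.1, the smallest possible, and 0.568 after adjustment over the 36 pairs of well-counted genes. mt-Rnr2 is the longer gene, at 1582 against 955 bases, and the length slopes given above also moved with the label. Whether length had a part was not tested.

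mt-Tl1 (ENSMUSG00000064340), the gene of a leucine tRNA that follows mt-Rnr2 directly, was the gene called lower in both fits. It had 100, 39 and 34 counts in wild type and 16, 21 and 8 in the knockout-labelled libraries. All 3 wild-type libraries were above all 3 others, also as CPM taken over the counts of its upstream neighbour mt-Rnr2 alone, at 90.7, 33.4 and 41.2 against 20.7, 17.99 and 6.96. Taken over the counts of its downstream neighbour mt-Nd1 the values were 184, 72.2 and 32.7 against 29.7, 16.2 and 7.46. Groups did not overlap for 35.4% of all genes tested in CPM scaled over all genes, and for 24.4% relative to the summed mitochondrial counts. The log2 fold change was -1.51 ± 0.423 (SE, edgeR adjusted p = 0.0468) over all genes and -1.995 ± 0.577 (SE, adjusted p = 0.0204) within the mitochondrial genome. The call is a narrow one on few counts. In the first fit, adjusted p was 0.238 without wild-type library 1, 0.161 without knockout-labelled library 3, and 0.0688, 0.0515 and 0.0737 without wild-type library 3 or knockout-labelled libraries 1 or 2. The call was also lost with RLE scaling (adjusted p = 0.0516), upper-quartile scaling (0.0556), TMM on nuclear genes only (0.0504), limma-voom (0.0606) and length and GC offsets (0.0667). In the second fit it was lost without wild-type library 1 or knockout-labelled libraries 2 or 3 (adjusted p = 0.479, 0.167 and 0.244).

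The sequences of mt-Tl1 and of mt-Ti, the highest tRNA gene, are given because the first was the only one that edgeR called with all 6 libraries and the second gave most tRNA gene counts.
mt-Tl1: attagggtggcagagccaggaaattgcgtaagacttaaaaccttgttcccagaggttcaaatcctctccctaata
mt-Ti: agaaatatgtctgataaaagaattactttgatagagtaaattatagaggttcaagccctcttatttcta
mt-Ti is an isoleucine tRNA gene of 69 bases just after mt-Nd1 with 27.5% G and C, and mt-Tl1 has 75 bases with 44% G and C. mt-Ti had 953, 727 and 1014 counts in wild type and 480, 1560 and 2798 in the knockout-labelled libraries, which held both the lowest and the highest library. Its log2 fold change was 1.23 ± 0.609 (SE, edgeR adjusted p = 0.212). mt-Ti alone gave 77.9%, 83.4% and 84.3% of tRNA gene counts in wild type and 85.3%, 86.4% and 86.6% in the knockout-labelled libraries.

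The remaining tRNA genes were sparse. mt-Tm, a methionine tRNA gene, had 72, 44 and 85 counts against 21, 121 and 210, and mt-Te, a glutamate tRNA gene on the minus strand, had 19, 10 and 23 against 7, 39 and 86. As for mt-Ti, knockout-labelled library 1 was the lowest and library 3 the highest of the 6 for both. Their log2 fold changes of 1.18 ± 0.751 and 1.73 ± 0.765 (SE) did not pass edgeR's threshold (adjusted p = 0.313 and 0.158). Without knockout-labelled library 3 the log2 fold changes of mt-Ti, mt-Tm and mt-Te were 0.40, 0.29 and 0.63, and with length and GC offsets that of mt-Tm was 0.12. The other 2 tested tRNA genes were mt-Tt and mt-Tp, at 8 to 44 and 13 to 39 counts. Over all 6 libraries together, 7 of the 22 tRNA genes had 0 counts, 6 had 1 to 10 counts and 9 had more. tRNA genes are 59 to 75 bases long and the library kit is one for mRNA. Whether these reads came from free tRNAs or from uncut precursors was not tested.

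Of the 7 complex I genes, 5 were well counted. mt-Nd1, a membrane-arm subunit at the quinone site, had 543989, 540021 and 1039395 counts in wild type and 538492, 1294340 and 1071981 in the knockout-labelled libraries. Wild-type library 3 and knockout-labelled libraries 2 and 3 had at least 1039395 counts, and the other 3 libraries lay between 538492 and 543989. Its log2 fold change was 0.71 ± 0.459 (SE, edgeR adjusted p = 0.304), and it was 1.37 without wild-type library 3 (adjusted p = 0.0784). mt-Nd1 was in 3 of the 5 pairs, out of 36 pairs of well-counted genes, whose ratios did not overlap between groups. The smallest permutation p for 3 against 3 is 0.1, so some of 36 pairs would separate by regrouping alone. There were 1.48, 1.68 and 1.70 counts of mt-Nd1 per count of mt-Nd2 in wild type and 2.46, 2.47 and 1.89 in the knockout-labelled libraries. Per count of mt-Nd4 they were 1.67, 2.53 and 2.27 against 3.85, 3.61 and 2.86, and per count of mt-Nd5 7.37, 13.5 and 11.1 against 18.6, 19.5 and 15.8. In each of these ratios the knockout-labelled libraries were all higher, and each had an exact permutation p of 0.1 with 0.568 after adjustment. The 3 ratios share mt-Nd1 and are not independent results. mt-Nd1 is shorter (957 bases) than mt-Nd2, mt-Nd4 and mt-Nd5 (1038, 1378 and 1824 bases). In all, 5 of the 36 pairs had groups that did not overlap. The fifth was mt-Rnr1 to mt-Nd6, also higher in the knockout-labelled libraries, and there mt-Rnr1 is the longer gene (955 against 519 bases). Whether length had a part in these ratios was not tested.

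The proton-pumping membrane subunits mt-Nd2, mt-Nd4 and mt-Nd5 kept close ratios to each other. mt-Nd2 had 367169, 322253 and 610035 counts in wild type and 219151, 524920 and 566218 in the knockout-labelled libraries. mt-Nd4 had 326557, 213741 and 458028 against 139980, 358393 and 374915, and mt-Nd5 had 73858, 40050 and 93454 against 28888, 66409 and 68064. For all 3, wild-type library 3 was the highest library in unscaled counts and knockout-labelled library 1 the lowest. Scaled over all genes, mt-Nd2 was highest in knockout-labelled library 3, at 57813 CPM against 54746 CPM in wild-type library 3. mt-Nd4 to mt-Nd5 was the steadiest of the 36 ratios, with an SD of 0.12 on the log2 scale over the 6 libraries. mt-Nd2 to mt-Nd4 was next at 0.18, where the median pair had 0.45. mt-Nd2 to mt-Nd5 was looser at 0.28, beside 0.25 for mt-Rnr2 to mt-Nd6 and 0.28 for mt-Rnr2 to mt-Co1. The log2 fold changes of mt-Nd2, mt-Nd4 and mt-Nd5 were 0.30 ± 0.459, 0.11 ± 0.460 and -0.03 ± 0.435 (SE, edgeR adjusted p = 0.667, 0.885 and 0.966).

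mt-Nd6, the only protein-coding gene of the minus strand, behaved unlike its neighbour mt-Nd5. It had 69172, 59718 and 47550 counts in wild type and 44627, 46069 and 52432 in the knockout-labelled libraries. In these unscaled counts wild-type library 3, the highest for mt-Nd5, was among the lower ones. Scaled over all genes it was not, with mt-Nd6 at 3900, 4076 and 4267 CPM against 3947, 3779 and 5353 CPM. On that scale mt-Nd5 was at 4165, 2733 and 8387 CPM against 2555, 5447 and 6950 CPM. Its log2 fold change was 0.10 ± 0.249 (SE, edgeR adjusted p = 0.812), with the smallest standard error of the 9. mt-Nd6 gave 99.7% to 99.9% of the counts on minus-strand genes, which together were 0.618% to 1.20% of the mitochondrial counts. Its log2 ratio to mt-Rnr2 had the third lowest SD of the 36 pairs (0.25), whereas its ratio to mt-Nd1 had an SD of 0.75. The strand setting of the counting is not given in the sources used here, so RNA of mt-Nd6 and RNA opposite to it cannot be told apart.

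mt-Co1 (ENSMUSG00000064351), the catalytic subunit of cytochrome oxidase, held the most even share of the mitochondrial counts. It had 1390340, 1192182 and 1479306 counts in wild type and 1035450, 1812815 and 1769545 in the knockout-labelled libraries. Its shares of the mitochondrial counts were 24.0%, 23.6% and 22.5% against 25.0%, 24.3% and 25.6%. The 3 knockout-labelled shares were higher, with means of 23.4% ± 0.800 and 25.0% ± 0.657 (SD, n = 3 each), and 24.4% of all genes tested had groups that did not overlap on this scale. The log2 fold change within the mitochondrial genome was 0.10 ± 0.446 (SE, edgeR adjusted p = 0.973). Over all genes it was 0.53 ± 0.359 (SE, adjusted p = 0.331), with overlapping groups.

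mt-Cytb (ENSMUSG00000064370), the core subunit of complex III and the last protein-coding gene of the plus strand, had 1528784, 1015497 and 1677154 counts in wild type and 962428, 1556322 and 1011552 in the knockout-labelled libraries. Its shares of the mitochondrial counts were 26.4%, 20.1% and 25.5% against 23.3%, 20.8% and 14.6%, and knockout-labelled library 3 was the lowest. That library was also the highest for mt-Rnr1, at the other end of the strand, so that it had 0.839 counts of mt-Rnr1 per count of mt-Cytb against 0.211 to 0.486 in the other 5 libraries. The log2 fold change of mt-Cytb was 0.05 ± 0.356 (SE, edgeR adjusted p = 0.941).

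Per length of gene, the levels spanned more than 10-fold. In kCPM (kilo-CPM) per kb of annotated length (mean ± SD of all 6 libraries), mt-Cytb had 89.1 ± 19.5, mt-Co1 74.1 ± 13.8, mt-Nd1 69.4 ± 26.5, mt-Rnr2 51.4 ± 6.48 and mt-Rnr1 43.2 ± 16.1. mt-Nd2 followed with 33.1 ± 11.8, mt-Nd4 with 17.8 ± 6.54, mt-Nd6 with 8.12 ± 1.04 and mt-Nd5 with 2.66 ± 0.988. From mt-Nd2 down, each gene was above the next in 6 of 6 libraries. Neighbours above it in the order were not apart beyond their spread, with the higher gene above the next in 4 or 5 of 6 libraries. The order depends on the length used as the divisor, with the counts left as they are. Leaving out the stretches shared with nuclear copies is apt only if no read from them was counted, which was not tested. When only bases outside the near-identical copies are counted as length, mt-Co1 had 107.8 ± 20.1 and was above mt-Cytb in 4 of 6 libraries, and mt-Nd4 had 48.9 ± 17.96, above mt-Rnr1 in 3 of 6.

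**Figure D5:**
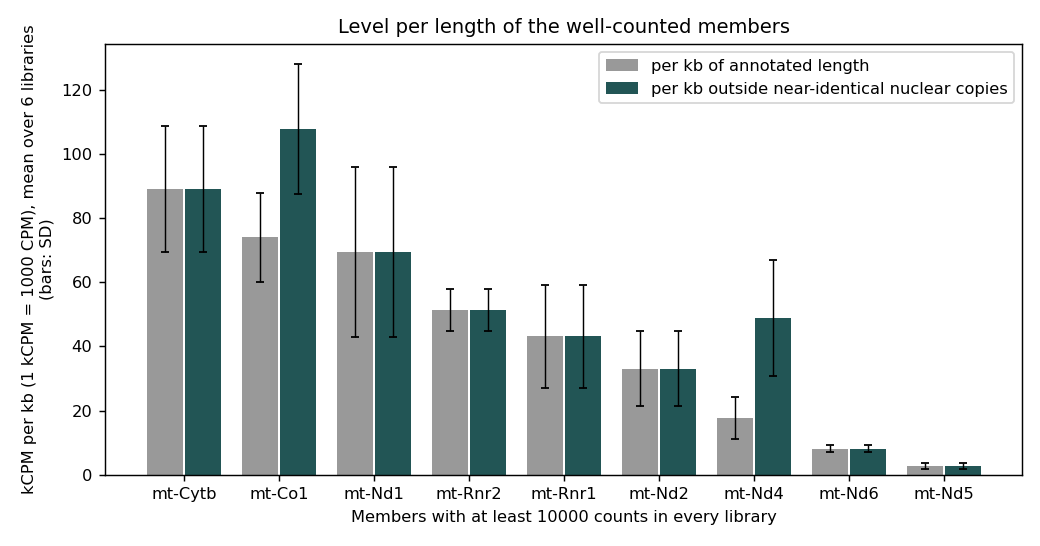
Level of the 9 well-counted genes in kCPM per kb (bars: mean of 6 libraries, whiskers: SD), with annotated length (grey) or only the length outside near-identical nuclear copies (green) as the divisor. mt-Nd4 goes from 17.8 to 48.9 and mt-Co1 from 74.1 to 107.8, and the other 7 are unchanged by construction.

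Some mitochondrial mRNAs gain their stop codon only through the poly(A) tail. mt-Co3, mt-Nd4 and mt-Cytb end in a single T, and the other 10 protein-coding genes end in a complete stop codon. The last 30 bases of 3 well-counted genes show both kinds, with the encoded stop letters in capitals.
mt-Co1: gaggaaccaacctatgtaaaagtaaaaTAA
mt-Nd4: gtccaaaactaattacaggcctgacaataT
mt-Cytb: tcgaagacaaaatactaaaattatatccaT

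Nearly all nuclear genes for subunits of the same complexes had positive fold changes, and 4 passed the test. Of 76 in the files, 73 were tested, edgeR called 4 higher and 0 lower, 45 had an unadjusted p under 0.05, and their median log2 fold change was 0.67, with 71 of 73 above 0. Over all genes tested 1.63% were called higher, 30.8% had an unadjusted p under 0.05 and the median was 0.03, each below the list's own value. The length slopes given above also moved with the label, and the part of transcript length in the list's median was not tested. All 4 called genes had groups that did not overlap, as did 35.4% of all genes, in CPM scaled over all genes (mean ± SD, n = 3 each). Ndufc1, an accessory subunit of complex I, went from 126 ± 22.1 to 268 ± 102 CPM (log2 fold change 1.09, adjusted p = 0.0399). Ndufb2, another one, went from 103 ± 31.8 to 220 ± 78.5 CPM (1.09, adjusted p = 0.0473). Cox7a1, the complex IV subunit isoform of muscle and brown fat, went from 321 ± 117 to 650 ± 102 CPM (1.02, adjusted p = 0.0455), and Atp5h, a stalk subunit of ATP synthase, from 169 ± 46.9 to 333 ± 78.6 CPM (0.98, adjusted p = 0.0459). These calls were 0 with library totals as the only scaling, with length and GC offsets, or without wild-type library 1 or 3 or knockout-labelled library 2 or 3. With the offsets the log2 fold changes of the 4 moved apart, to 0.93 for Ndufc1, 1.62 for Ndufb2, 0.29 for Cox7a1 and 0.58 for Atp5h. The calls were 36 without wild-type library 2, where 692 of all 12068 genes were called higher. They were 10 without knockout-labelled library 1, where 301 of all genes were. By complex, calls were 2 of 36 for complex I, 0 of 9 for complex III, 1 of 14 for complex IV and 1 of 14 for ATP synthase.

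Mitochondrially encoded counts per nuclear subunit count varied between the pools of both groups. The widest departure was that of wild-type library 3, the library with the muscle markers. All 13 encoded proteins had 8.54, 5.65 and 19.1 counts per count of the nuclear subunits in wild type and 4.92, 11.1 and 9.33 in the knockout-labelled libraries. For complex I the ratio was 8.86, 6.31 and 24.7 against 5.35, 14.17 and 12.3. For complex III, where mt-Cytb is the sole encoded subunit, it was 20.6, 11.9 and 44.5 against 10.4, 22.8 and 14.9. Wild-type library 3 was the highest and knockout-labelled library 1 the lowest of the 6 in all of these, and the groups overlapped.

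Of the nuclear genes that transcribe, process, stabilise or modify mitochondrial RNA, 54 were in the files and 53 were tested. edgeR called 0 higher and 1 lower, 11 had an unadjusted p under 0.05, and the median log2 fold change was 0.08, with 31 of 53 above 0. Over all genes 7.52% were called lower and 30.8% had an unadjusted p under 0.05, shares above those of this list. DESeq2 called 2 higher and 2 lower, where it called 493 of 11733 genes higher and 1350 lower. Lrpprc, which binds and stabilises mitochondrial mRNAs, had 70.2, 38.3 and 65.6 CPM scaled over all genes in wild type and 25.7, 33.9 and 20.4 CPM in the knockout-labelled libraries. All 3 wild-type values were higher, where 35.4% of all genes tested had groups that did not overlap. The log2 fold change of Lrpprc was -1.12 ± 0.291 (SE, edgeR adjusted p = 0.0387). This call was lost with length and GC offsets, and without wild-type library 1 or 3 or knockout-labelled library 2 or 3. Next by p came 3 genes of RNA modification that did not pass, with log2 fold changes of 0.80 for Mrm2, a methyltransferase of the 16S rRNA, 0.98 for Yrdc, which acts on tRNAs, and 0.94 for Qtrt1, a tRNA base exchange enzyme (adjusted p = 0.0655, 0.0706 and 0.0771).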

How the data were processed

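RNA-seq was deposited as counts per Ensembl gene for 6 libraries. Per the submitters' processing notes, STAR 2.5.4b and the mm9 build were used; no source used here names the counting program, its strand setting, the annotation release or how multiply matching reads were handled. Values in the deposited files are raw counts, per the file contents. Symbols, lengths and sequences came from GENCODE M21 on GRCm38 by gene identifier (32897 of 37620 identifiers have a symbol, and the rest hold 0.1775% of counts), so no genome coordinates are given.

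Counts were tested with edgeR 4.0.16 (R 4.3.3, robust quasi-likelihood, TMM, filterByExpr with a minimum count of 10 and total of 15, two-sided, Benjamini-Hochberg over all 12068 genes tested, threshold 0.05). The second fit used summed mitochondrial counts as library sizes. Shares and ratios were compared by exact two-sided permutation over libraries. Nuclear copies were searched with BLAST 2.17.0 (at least 85% identity over at least 40 bases, e-value 1e-10). The fits were tested on simulated data. Alternatives were other scalings, filters and thresholds, DESeq2 1.42.0, limma 3.58.1, length and GC offsets, a replicate block and each library left out.

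All mitochondrial genes could be named, with values per library for rRNA, protein-coding and the 4 highest tested tRNA genes. Of each nuclear list the 4 genes of smallest p were named, with Phospho1 and Ucp1. The members and lists were chosen with earlier results of these data known. Depth was 10576800 to 14239307 counts per library, and every pair of libraries differed in at least 17700 genes, so no library was counted as a repeat.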

Additional observations from a re-analysis of the deposited data

How the results depend on the processing

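Members called lower were 1 in the edgeR fit and 0 with RLE, upper-quartile or nuclear-only TMM scaling, limma-voom, length and GC offsets or a threshold of 0.01, and 0 to 1 with one library left out; called higher were 0, 1 with DESeq2 and 0 to 5. Relative to mitochondrial counts, calls lower were 1, 0 at the 0.01 threshold and 0 to 1 with one library left out, and calls higher 0 to 1. Nuclear subunits called higher were 4, but 7 with upper-quartile scaling, 22 with DESeq2, 8 with the replicate block, 0 with total counts, offsets or the 0.01 threshold, and 0 to 36 with one library left out. Over all genes, those called higher were 253 with upper-quartile scaling, 493 with DESeq2, 223 with the replicate block and 692 without wild-type library 2. RNA-handling genes called higher were 0, 2 with DESeq2, 1 with the replicate block and 0 to 3; called lower were 1, 2 with DESeq2, 0 with offsets or at 0.01, and 0 to 3. The cause was not tested, except that a stricter threshold lowers counts by construction.

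The log2 change of mt-Nd5 turned to 0.041 (upper quartile), 0.00037 (limma-voom) and 0.31 (offsets), and with total counts mt-Nd4, mt-Nd6 and mt-Cytb turned to -0.15, -0.18 and -0.18. With one library left out, the ranges that crossed 0 were -0.047 to 0.90 (mt-Nd2), -0.23 to 0.68 (mt-Nd4), -0.34 to 0.51 (mt-Nd5), -0.092 to 0.18 (mt-Nd6) and -0.17 to 0.41 (mt-Cytb). Relative to mitochondrial counts they were -0.31 to 0.11 (mt-Rnr2), -0.25 to 0.10 (mt-Nd2) and -0.045 to 1.03 (mt-Tm). The rRNA share difference ran from -2.27 to 5.25 points and the protein-coding one from -5.26 to 2.26. The mitochondrial share difference stayed above 0, at 1.92 to 10.63 points.

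Same-numbered libraries did not deviate together (correlations 0.145, -0.534 and 0.0319), and not every library correlated best with its own number. With 3 libraries per group this cannot exclude a match between them, and the labels give only a number. The replicate block gave 0 members higher and 1 lower in both fits and a share difference of 5.19 points (exact sign-flip p = 0.5). Over all genes the block called 223 higher and 976 lower against 197 and 908, DESeq2 called 493 and 1350, library totals 29 and 1388, and offsets 1 and 0; leaving out wild-type library 1 gave 0 and 0. The 20 untested members had too few counts to pass the filter, and the cause was not tested.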

Other observations

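Of the diverged nuclear copies of mitochondrial genes, 8 were among the counted identifiers. Gm13340, a chromosome 2 pseudogene at 97.6% identity to mt-Co1, had 7426, 7438 and 9446 counts in wild type and 5461, 12826 and 14046 in the knockout-labelled libraries. In unscaled counts it was, like mt-Co1 itself, lowest in knockout-labelled library 1, the library with the fewest total counts (10576800). Scaled over all genes, mt-Co1 was lowest in wild-type library 1, at 78397 CPM against 91585 CPM in knockout-labelled library 1. Gm13341, on the same chromosome and 95.9% identical to mt-Co2, had 2080, 1879 and 2075 counts against 1928, 2389 and 1910. Each of these libraries thus held over 100 times more counts on this copy than on mt-Co2, which had 4 to 13. Gm11410, the chromosome 4 copy of mt-Cytb, had 1174, 786 and 1079 counts against 788, 1010 and 675. In these unscaled counts its highest and lowest libraries were wild-type library 1 and knockout-labelled library 3. Gm13339 (96.7% identical to mt-Nd2) had 136 to 340 counts and Gm11408 (93.6% identical to mt-Nd6) 55 to 104. Whether reads on these copies are nuclear RNA or misplaced mitochondrial reads was not tested.

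The Cep295 transcript holds a stretch of 62 bases at 93.5% identity to mt-Tl1, on the opposite strand. Cep295 had 57, 14 and 18 counts in wild type and 8, 17 and 25 in the knockout-labelled libraries.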
